A study of Mus musculus with 9 samples.

Results

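The genes described here are those of the proteasome: every gene on the array whose symbol is Psm followed by a letter from a to g and a digit, with pseudogenes left out. There are 50 of them among the 19938 genes measured. Of these, 48 encode subunits, regulators or assembly factors of the proteasome. The other two, Psmc3ip and Psme3ip1, encode proteins that interact with a subunit and match by symbol alone. They are counted with the rest and named where they move. All 50 had at least 1 probe set, a group of short probes that reads the same transcript. Psma3, Psma5, Psmb3, Psmc1 and Psmd2 had several, of which the brightest was used.

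The samples were bone marrow from the femurs of C57BL6 mice, hybridised to 9 Affymetrix arrays in 3 groups of 3. The ERG leukemia group is whole marrow from 3 mice that carried an ERG transgene and were killed when signs of leukemia appeared, and the series describes the disease as a myeloid leukemia. The lineage-negative group is wild type marrow of 9 mice from which cells with mature blood cell markers had been removed with a commercial depletion kit, pooled as 3 samples of 3 mice. The whole marrow group is unfractionated marrow from 3 wild type mice. The labels name neither the promoter that drives the transgene nor its species nor the ages of the mice.

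The proteasome is the protease that breaks down most proteins tagged with ubiquitin. Its core particle is a barrel of stacked alpha and beta rings with the active sites inside, and a regulatory particle at the end of the barrel binds ubiquitin chains, removes them and uses ATPases to unfold and feed in the substrate. In cells exposed to interferon gamma, and constitutively in many blood cells, the catalytic subunits Psmb5, Psmb6 and Psmb7 are replaced by Psmb8, Psmb9 and Psmb10. That form, the immunoproteasome, often works with the activator made of Psme1 and Psme2 and supplies peptides for MHC class I molecules. Dividing blood cells and leukemias are known for a high demand on the proteasome, and its inhibitors are used as drugs against some blood cancers.

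Of the 43 subunits, regulators and assembly factors outside the immunoproteasome, 23 were higher in ERG leukemia marrow than in wild type whole marrow, and none passed the test against lineage-negative marrow. Of the 5 immunoproteasome genes, none passed in either of those comparisons. With 5 genes, and 14.6% of all genes higher in the leukemias than in whole marrow, that count says nothing of a difference between the sets. Psme1 of the 5 was higher in lineage-negative than in whole marrow (log2 difference 0.31, adjusted p = 0.0154, limma). Of the 50 genes, 24 were higher in the leukemias than in whole marrow and 0 were lower (limma, adjusted p under 0.05), where 14.6% of all genes were higher and 9.93% lower (24.5% in either direction). At an unadjusted p under 0.05, Psmb9 alone was lower. The same arrays gave 34 of 50 genes higher and 0 lower in lineage-negative than in whole marrow, against 21.7% and 13.0% of all genes (34.7% in either direction), and none was lower there at an unadjusted p under 0.05. Between the leukemias and lineage-negative marrow, 0 of 50 passed in either direction, against 2.95% higher and 5.74% lower of all genes (8.69% in either direction). At an unadjusted p under 0.05 that comparison had 5 genes, all lower in the leukemias: Psma8, Psmc3ip, Psmd7, Psmd9 and Psmg1, named here after their values were seen. The share of all genes at the unadjusted cutoff is not given, so counts at it are not read as a result about the proteasome genes. The first 2 comparisons share the whole marrow arrays, so their counts are not independent of each other.

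The median log2 difference of the 50 genes was 0.43 between the leukemias and whole marrow, where the median of all genes was -0.02. It was 0.48 between lineage-negative and whole marrow, beside -0.03 for all genes, and -0.10 between the leukemias and lineage-negative marrow, beside 0.01. Counted by arrays, 34 of the 50 genes had all 3 leukemias above all 3 whole marrow arrays and 0 had the reverse, against 19.4% and 17.7% of all genes. For lineage-negative over whole marrow the counts were 39 above and 1 below, against 26.6% and 23.4%, and for the leukemias over lineage-negative marrow 0 above and 6 below, against 11.6% and 16.3%. In order of group means, 33 genes ran lineage-negative, leukemia, whole marrow from high to low, and 12 ran leukemia, lineage-negative, whole marrow. The other 5 (Psmb8, Psmb9, Psme2, Psmb11 and Psme4) had whole marrow highest. Proteasome genes are bright, and among the 11001 genes with a group mean above the array's median intensity, 49 of which are proteasome genes, the shares higher in the leukemias than in whole marrow were 55.1% of proteasome genes and 26.9% of all.

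How the arrays are scaled bears on these counts. When the arrays were centred on their 75th percentiles, 19 of 50 were higher in the leukemias than in whole marrow. With cyclic loess 14 were, against 24 as deposited. The shares of all genes higher were 11.1% and 10.9%, against 14.6%. For lineage-negative over whole marrow the counts were 23 and 20, against 34. There the shares of all genes were 16.8% and 16.3%, against 21.7%. No proteasome gene was lower under either scaling in any comparison. Of all genes past the threshold between the leukemias and whole marrow, 59.4% were higher as deposited, 47.7% after centring and 47.2% after loess. In the leukemias against lineage-negative marrow that share was 34.0%, 44.0% and 44.9%, and in lineage-negative against whole marrow 62.6%, 50.3% and 51.2%. Centring moved the median log2 difference of all genes to -0.10 in the leukemias against whole marrow and to -0.16 in lineage-negative against whole marrow, where the proteasome genes then had medians of 0.35 and 0.36. After loess their medians were 0.26 in both comparisons, beside -0.01 and -0.00 for all genes. The 14 genes higher in the leukemias than in whole marrow under every alternative that was run were Psma5, Psmc1, Psmc2, Psmc5, Psmd1, Psmd2, Psmd3, Psmd5, Psmd7, Psmd11, Psmd12, Psme3, Psmf1 and Psmg2. In lineage-negative over whole marrow, 19 of the 34 kept their call under every alternative. They were Psma5, Psma8, Psmb2, Psmc3ip, Psmc5, Psmd1, Psmd2, Psmd3, Psmd5, Psmd6, Psmd7, Psmd9, Psmd11, Psmd12, Psme3, Psmf1, Psmg1, Psmg2 and Psmg4.

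**Figure D1:**
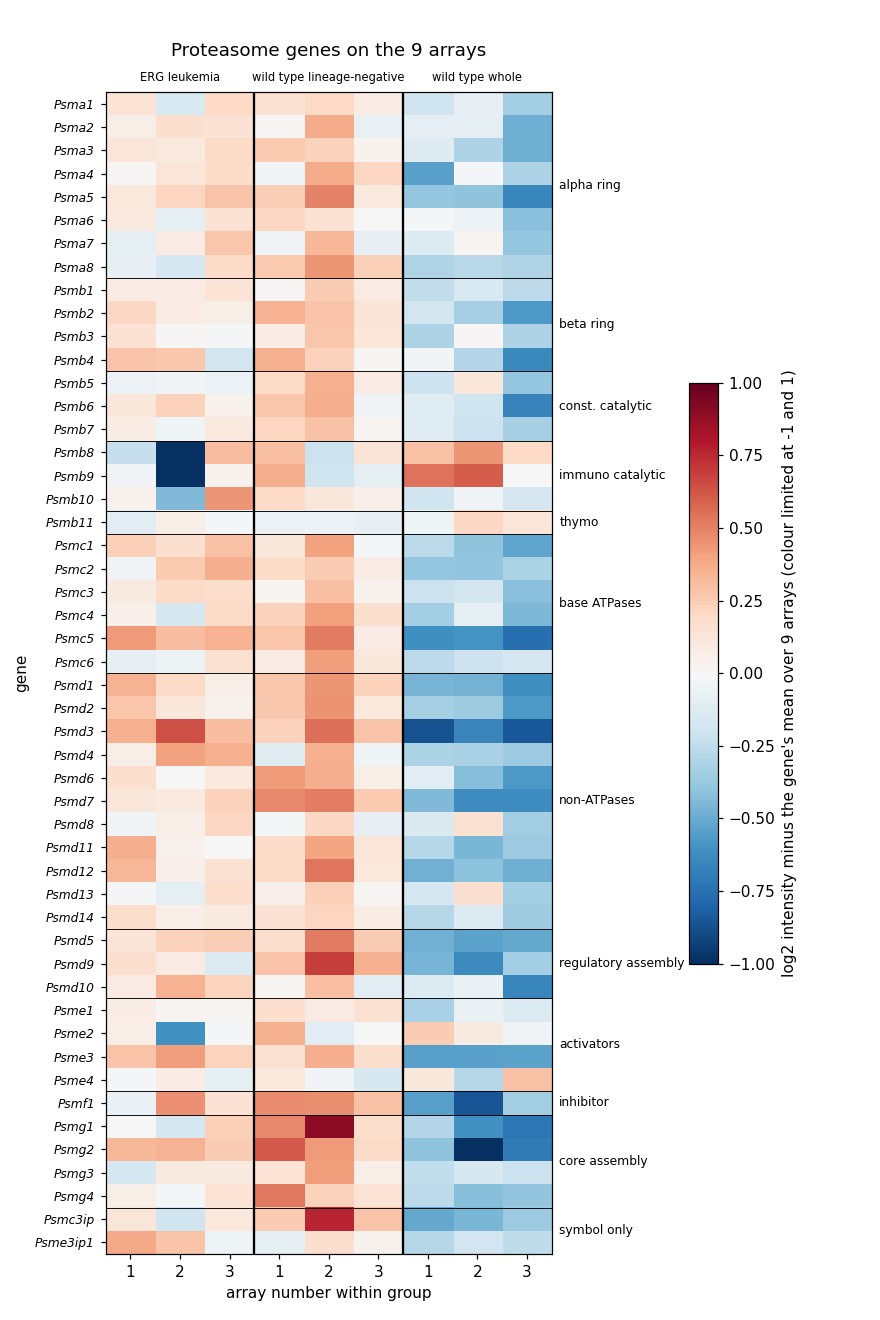
Log2 intensity of each of the 50 proteasome genes on each of the 9 arrays, minus that gene's mean over all arrays, with rows grouped by role and columns by group; the colour scale ends at -1 and 1. Most rows are low in the 3 whole marrow columns, while Psmb8 and Psmb9 are lowest in leukemia 2.

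The groups are mixtures of cells whose makeup differs, and in such bulk samples fewer cells of a type and less RNA per cell cannot be told apart. Summed intensity of 8 mature neutrophil markers was 11061 to 16597 in the leukemias, 494.7 to 1418 in lineage-negative marrow and 28168 to 33376 in whole marrow, and 6 of the 8 fell in the leukemias relative to whole marrow. So did all 7 measured B cell markers, with sums of 335.4 to 510.7, 273.0 to 417.8 and 1058 to 4367 in the same order of groups, and Ebf1, Pax5 and Vpreb3 were below the array's median intensity in the leukemias. Stem and progenitor markers (8 genes) summed to 1614 to 2610 in the leukemias, 2898 to 4097 in lineage-negative marrow and 1345 to 1630 in whole marrow. The excess of the leukemias over whole marrow lay in Gata2: without it, a choice made after seeing the data, the sums were 986.0 to 1268, 2391 to 3472 and 1251 to 1518. Against whole marrow the list had a median log2 difference of -0.28 in the leukemias, with Gata2 higher (3.13) and Cd34 lower (-0.99) among the 8, and of 1.28 in lineage-negative marrow, where 6 of 8 were higher. Of 6 erythroid markers, 4 were higher in the leukemias than in whole marrow, with sums of 1755 to 4582, 2164 to 3021 and 699.1 to 2211. Megakaryocyte markers (6 genes) summed to 679.7 to 2538 in the leukemias, 5361 to 8715 in lineage-negative marrow and 2197 to 3222 in whole marrow. Of these, 5 were higher and 0 lower in lineage-negative than in whole marrow, and 3 were lower in the leukemias against lineage-negative marrow. In the leukemias against whole marrow 1 was higher and 2 lower, with a median log2 difference of 0.31 and 4 of 6 above 0. Most of the whole marrow sum was Ppbp, at 2451, 1549 and 2009, which read 47.7, 214.5 and 187.6 in the leukemias. Of 7 T and NK cell markers, 4 were lower and 0 higher in the leukemias than in whole marrow, with sums of 182.1 to 290.9, 224.9 to 301.5 and 470.3 to 525.7. Over all genes, the share past the threshold was 14.6% upward and 9.93% downward for the leukemias against whole marrow. It was 2.95% and 5.74% for the leukemias against lineage-negative marrow, and 21.7% and 13.0% for lineage-negative against whole marrow. With 6 to 8 markers a list, counts of 1 or 2 say nothing of the list as a group. No marker had an intensity of 0, because array signals do not reach it. The part of these shifts in cell makeup in the proteasome values was not tested. The mouse Erg probe set read 6.60, 6.19 and 6.32 on the log2 scale in the leukemias, 7.01, 6.55 and 6.84 in lineage-negative marrow, and 7.25, 7.60 and 7.01 in whole marrow, which checks nothing about a transgene whose species is not given.

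The regulatory particle supplied 13 of the 24 genes that were higher in the leukemias than in whole marrow. Of its 17 subunits that match the symbol rule, those 13 were higher in the leukemias and 0 lower. Their median log2 difference was 0.56, and of all genes 14.6% were higher and 9.93% lower. Lineage-negative marrow had 14 of the 17 higher than whole marrow, with a median of 0.57, against 21.7% of all genes higher. Sem1, a lid subunit that the rule does not match, is read with the partners below. Among the 11 of the 17 that are not ATPases, 9 were higher in the leukemias. The exceptions, Psmd8 and Psmd13, differed by 0.19 and 0.14 without passing the test. Of the 6 ATPases that form the particle's ring, Psmc1, Psmc2, Psmc3 and Psmc5 were higher in the leukemias. The remaining ATPases, Psmc4 and Psmc6, differed by 0.33 and 0.22 and did not pass, though all 6 were higher in lineage-negative than in whole marrow. Of those 6 calls only that of Psmc5 held after both other scalings. Psmc1, Psmc2 and Psmc4 lost theirs after loess, and Psmc3 and Psmc6 after either scaling. Psmc3 also lost its call in the leukemias after either scaling.

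Psmd3, a subunit of the lid that covers the regulatory particle's base, had the largest difference of the 50. Its log2 intensity was 8.16, 8.45 and 8.12 in the leukemias, 8.04, 8.36 and 8.09 in lineage-negative marrow, and 6.94, 7.15 and 6.96 in whole marrow. Every leukemia and every lineage-negative pool lay above every whole marrow array, and the leukemias overlapped the pools. Psmd3 was 2.34-fold higher in the leukemias than in whole marrow (log2 difference 1.23 ± 0.12 SE, adjusted p = 0.000666, limma) and 2.22-fold higher in lineage-negative than in whole marrow (1.15 ± 0.12, adjusted p = 0.000204). Between the leukemias and lineage-negative marrow it differed by 0.08, with a 95% interval of -0.20 to 0.35.

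Psmc5, one of the ATPases, was next among the subunits in the leukemias against whole marrow. Its log2 intensity was 7.36, 7.24 and 7.28 in the leukemias, 7.21, 7.45 and 7.01 in lineage-negative marrow, and 6.32, 6.33 and 6.18 in whole marrow. Whole marrow was again apart from both other groups, which overlapped. The leukemias were 2.02-fold higher than whole marrow (1.02 ± 0.11, adjusted p = 0.000857, limma) and lineage-negative marrow 1.93-fold higher (0.95 ± 0.11, adjusted p = 0.000318).

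Psmd7, the lid subunit that pairs with the deubiquitinase Psmd14, separated all 3 groups. It read 8.99, 8.98 and 9.11 in the leukemias, 9.36, 9.39 and 9.14 in lineage-negative marrow, and 8.44, 8.25 and 8.26 in whole marrow. The leukemias lay between the pools and whole marrow with no overlap on either side. Psmd7 was 1.63-fold higher in the leukemias than in whole marrow (0.71 ± 0.09, adjusted p = 0.00153, limma) and 1.97-fold higher in lineage-negative than in whole marrow (0.98 ± 0.09, adjusted p = 0.000144). Its difference from lineage-negative marrow, -0.27 ± 0.09, had an adjusted p of 0.12. Psmd14 itself differed less, at 0.37 ± 0.08 between the leukemias and whole marrow (adjusted p = 0.0115, limma), and it did not pass after either other scaling.

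The scaffold subunits Psmd1 and Psmd2, on which the base is built, were 1.64-fold and 1.48-fold higher in the leukemias than in whole marrow. Psmd4, a receptor for ubiquitin chains, was 1.52-fold higher in the leukemias (log2 difference 0.61 ± 0.14, adjusted p = 0.0136, limma), while its difference of 0.40 between lineage-negative and whole marrow missed the threshold at an adjusted p of 0.0551. After loess the difference of Psmd4 between the leukemias and whole marrow was 0.43 and did not pass (adjusted p = 0.0607, limma). The lid subunits Psmd11 and Psmd12 were 1.41-fold and 1.55-fold higher in the leukemias. Psmd6, another lid subunit, passed with 0.46 ± 0.14 (adjusted p = 0.0414) but failed in most of the alternatives, among them with leukemia 1, leukemia 2, leukemia 3, whole marrow 2, whole marrow 3, pool 1 or pool 2 left out, where its adjusted p ran up to 0.128.

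In the core particle fewer subunits passed the test, and whether its differences were smaller than those of the regulatory particle was not tested. Of all genes 14.6% were higher in the leukemias than in whole marrow and 21.7% in lineage-negative than in whole marrow. Of the 14 alpha and beta subunits of the constitutive core (Psma1 to Psma7 and Psmb1 to Psmb7), 4 were higher in the leukemias than in whole marrow, Psma3, Psma5, Psmb1 and Psmb2, and 9 were higher in lineage-negative than in whole marrow. All 14 had a positive difference in both comparisons, with medians of 0.33 and 0.39. Psma5, an alpha ring subunit, had the largest at 0.69 ± 0.12 in the leukemias, a 1.61-fold difference (adjusted p = 0.00433, limma). It is the only core subunit of the 4 that passed under every alternative; Psma3 and Psmb2 did not pass after loess, and Psmb1 did not pass after either scaling, with the moderated test's trend option, or with leukemia 3, whole marrow 1 or whole marrow 3 left out. Psma8, a testis form of an alpha subunit, was below the array's median intensity in the leukemias and in whole marrow, and its 1.52-fold difference between lineage-negative and whole marrow is limited by background. With leukemia 3 left out, Psma8 was lower in the leukemias than in lineage-negative marrow (-0.44, adjusted p = 0.0347, limma), the only proteasome gene called in that comparison in any alternative.

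For the 31 constitutive core and regulatory particle subunits together, the difference between the leukemias and lineage-negative marrow ran from -0.27 (Psmd7) to 0.21 (Psmd4). The 95% intervals of all 31 lay between -0.55 and 0.53, so differences larger than that fall outside the intervals. Psmd7 was the only subunit of the 31 whose interval did not include 0. The median of the 17 regulatory subunits, each taken relative to its own mean over the 9 arrays, was 0.16, 0.10 and 0.18 in the leukemias, 0.19, 0.40 and 0.08 in lineage-negative marrow, and -0.31, -0.40 and -0.45 in whole marrow. Pool 2 was the highest of the lineage-negative arrays and whole marrow 3 the lowest of all, and no whole marrow array overlapped the others. The median SD over arrays of the 50 genes was 0.163 in the lineage-negative pools, where that of all genes was 0.101. In the leukemias it was 0.121 beside 0.127 for all genes, and in whole marrow 0.133 beside 0.127.

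**Figure D2:**
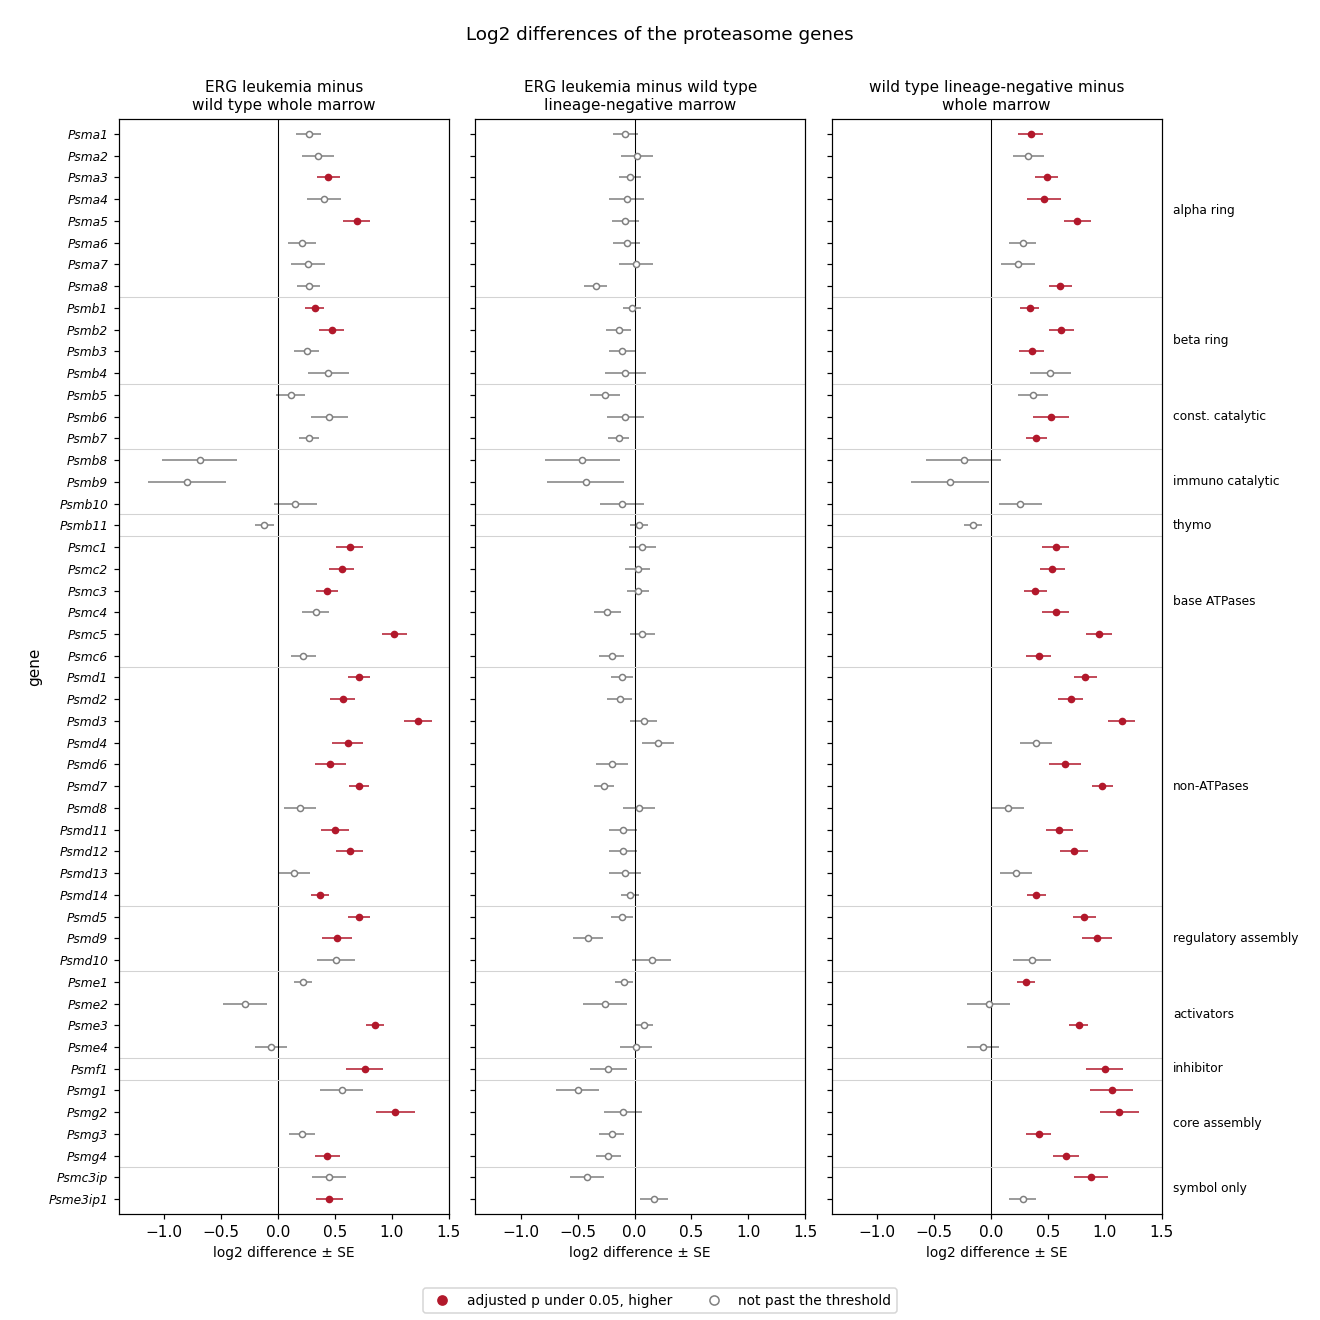
Log2 difference of each of the 50 genes in the 3 comparisons (ERG leukemia minus whole marrow, ERG leukemia minus lineage-negative marrow, lineage-negative minus whole marrow), grouped by role; filled points passed an adjusted p of 0.05 and bars are standard errors. In the first panel the 24 filled points are all right of 0, Psmb8 (-0.69), Psmb9 (-0.80) and Psme2 (-0.29) lie left of it, and the middle panel has no filled point.

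Of the constitutive catalytic subunits, which carry the proteolytic sites, none (Psmb5, Psmb6 or Psmb7) passed between the leukemias and whole marrow. Psmb5, the chymotrypsin-like subunit and the main target of bortezomib, read 10.17, 10.20 and 10.17 in the leukemias, 10.42, 10.58 and 10.31 in lineage-negative marrow, and 10.02, 10.34 and 9.84 in whole marrow. The leukemias were nearly identical, lay inside the range of whole marrow and lay below all 3 pools. The difference from whole marrow was 0.11 ± 0.13 (adjusted p = 0.602, limma) and took the opposite sign after loess, at -0.05, and without whole marrow 3. The difference from lineage-negative marrow was -0.26 (adjusted p = 0.278), with a 95% interval of -0.55 to 0.03.

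Psmb6, the caspase-like subunit, read 8.85, 8.97 and 8.78 in the leukemias, 9.02, 9.10 and 8.70 in lineage-negative marrow, and 8.62, 8.54 and 8.07 in whole marrow. All leukemias were above all whole marrow arrays, but the difference of 0.45 ± 0.16 had an adjusted p of 0.0715 (limma) and was 0.28 without whole marrow 3. Psmb7, the trypsin-like subunit, read 9.57, 9.45 and 9.59 in the leukemias, 9.71, 9.79 and 9.52 in lineage-negative marrow, and 9.37, 9.29 and 9.16 in whole marrow. Here too the leukemias and whole marrow did not overlap, and the difference of 0.27 ± 0.09 had an adjusted p of 0.0718. Both were higher in lineage-negative than in whole marrow, by 0.53 (adjusted p = 0.03) and 0.40 (adjusted p = 0.00953), and neither of those passed after either other scaling.

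None of the 3 catalytic subunits of the immunoproteasome passed the test in any comparison with all arrays in the fit. Psmb8, which takes the place of Psmb5, read 7.05, 6.04 and 7.59 in the leukemias, 7.58, 7.06 and 7.41 in lineage-negative marrow, and 7.57, 7.72 and 7.48 in whole marrow. Leukemias 1 and 2 were below every whole marrow array, leukemia 3 was among them, and leukemia 2 was the lowest array of the 9. The difference between the leukemias and whole marrow was -0.69 ± 0.33, with a 95% interval of -1.45 to 0.06 (adjusted p = 0.181, limma). Without leukemia 3 it was -1.04 and passed (adjusted p = 0.0346), and without leukemia 2 it was -0.27 (adjusted p = 0.386), so the size and the call of the Psmb8 difference depend on single arrays.

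Psmb9, the counterpart of Psmb6, read 6.95, 5.73 and 7.02 in the leukemias, 7.34, 6.78 and 6.88 in lineage-negative marrow, and 7.52, 7.58 and 6.98 in whole marrow. Leukemia 2 was again the lowest, and leukemia 3 overlapped whole marrow. Its difference from whole marrow was -0.80 ± 0.34, with a 95% interval of -1.57 to -0.02 and an adjusted p of 0.132 (limma), and without leukemia 2 it was -0.38 (adjusted p = 0.273). Psmb10, the counterpart of Psmb7, read 7.46, 6.98 and 7.86 in the leukemias, 7.61, 7.53 and 7.47 in lineage-negative marrow, and 7.22, 7.39 and 7.25 in whole marrow. The leukemias ranged on both sides of the wild type arrays, and the difference of 0.15 ± 0.19 took the opposite sign after loess and without leukemia 3, and was 0.38 without leukemia 2. Fitted on the wild type arrays alone, Psmb10 was higher in lineage-negative than in whole marrow (0.26, adjusted p = 0.0486, limma). Psmb11, the catalytic subunit found in the thymus, was below the array's median intensity in all 3 groups.

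Leukemia 2 lay apart from leukemias 1 and 3 on this set. Against leukemia 1 and leukemia 3 it differed by -1.01 and -1.54 in Psmb8, by -1.22 and -1.30 in Psmb9, by -0.48 and -0.88 in Psmb10 and by -0.67 and -0.60 in Psme2. The SD of Psmb8 over the leukemias lay at the 98.1st percentile of all genes and that of Psmb9 at the 97.6th. Psme1 did not follow: it was within 0.05 of both other leukemias. The transcription factor Irf1, which induces these genes under interferon, was also lowest in leukemia 2, at 6.63, 5.82 and 7.22 in leukemias 1 to 3, and so was the peptide transporter subunit Tap1, at 7.47, 6.77 and 7.60. Leukemia 2 also stood apart on cell type markers. Summed intensity of 8 monocyte and macrophage markers was 1712 in leukemia 2, against 4086 and 4221 in leukemias 1 and 3. Its sums were likewise the lowest of the leukemias for neutrophil markers (11061, against 16419 and 16597) and T and NK cell markers (182.1, against 290.9 and 250.4). They were the highest for erythroid markers (4582, against 1755 and 3968) and megakaryocyte markers (2538, against 679.7 and 1362). The part of these cells in the immunoproteasome values was not tested. The sum of the 7 interferon targets was not lowest in leukemia 2, at 523.0, 668.8 and 818.2 in leukemias 1 to 3. It was 316.9, 326.1 and 274.5 in the pools, and 1529, 1209 and 930.5 in whole marrow. Gene by gene the order was mixed. Oas2 (intensity 87.7, 42.4 and 69.0 in leukemias 1 to 3), Rtp4, Mx1 and Ifit3 were lowest in leukemia 2. Rsad2 (74.7, 257.4 and 289.2), Ifit1 and Irf7 were lowest in leukemia 1.

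**Figure D3:**
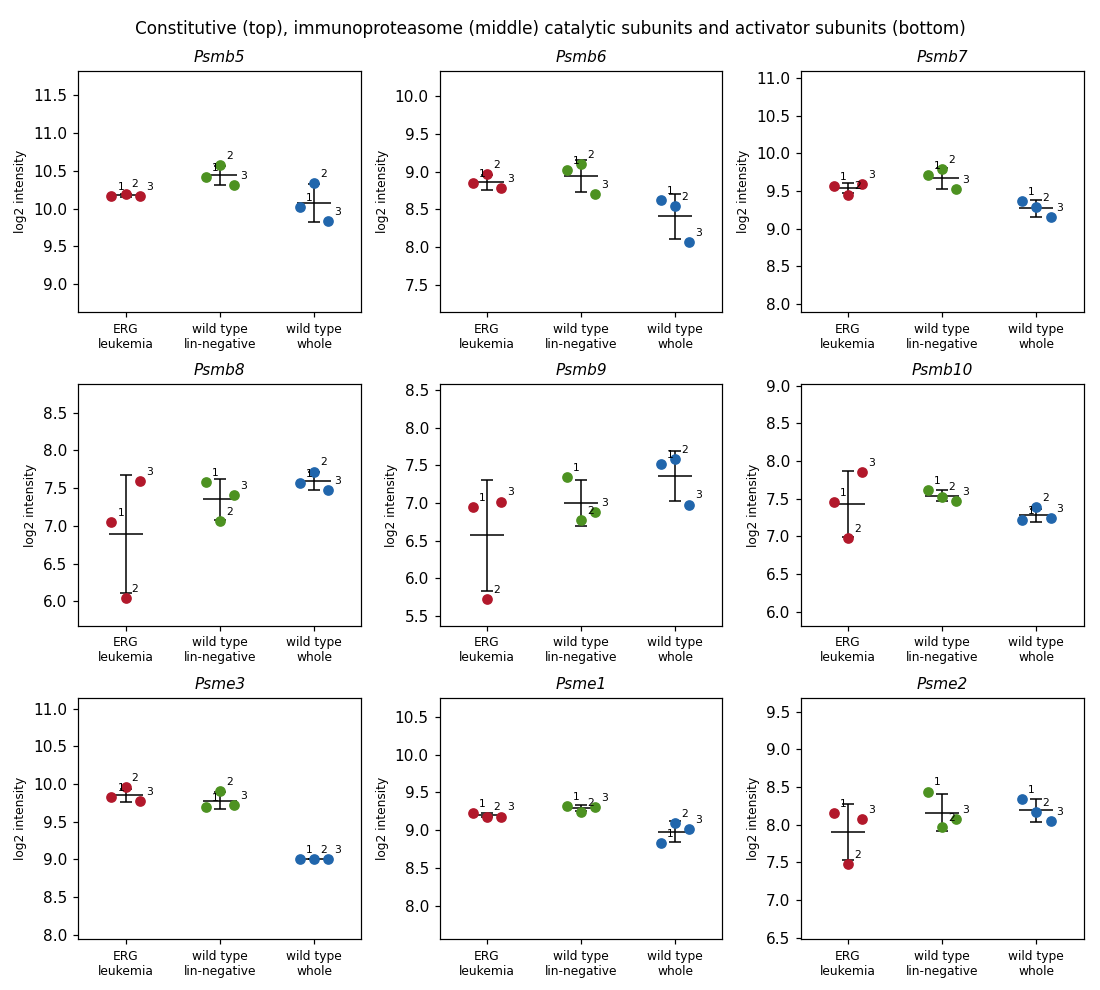
Log2 intensity on each array of the constitutive (top) and immunoproteasome (middle) catalytic subunits and of the activators Psme3, Psme1 and Psme2 (bottom), with ERG leukemia at the left of each panel, then lineage-negative and whole marrow; numbers name the arrays, and bars are the group mean ± SD. Psmb8 reads 6.04 and Psmb9 5.73 in leukemia 2, below all other arrays, while Psmb5 reads 10.17 to 10.20 in all 3 leukemias.

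Setting each catalytic subunit of the immunoproteasome against its constitutive partner on the same array gives a balance that does not depend on the overall brightness of the array. The members of a pair have different probes, so only differences of the log2 ratio between arrays are read, and no test was made. Psmb9 over Psmb6 was -1.90, -3.24 and -1.75 in the leukemias, -1.68, -2.32 and -1.82 in lineage-negative marrow, and -1.10, -0.96 and -1.09 in whole marrow. All leukemias and all pools were below all whole marrow arrays, and the mean difference of leukemia from whole marrow was -1.25, or -0.78 without leukemia 2, an alternative chosen after seeing the data. Psmb8 over Psmb5 was -3.12, -4.16 and -2.59 in the leukemias, -2.84, -3.52 and -2.90 in the pools, and -2.45, -2.62 and -2.36 in whole marrow. Here leukemia 3 overlapped whole marrow, the pools did not, and the mean difference of leukemia from whole marrow was -0.81, or -0.37 without leukemia 2. Psmb10 over Psmb7 overlapped between every pair of groups, with a mean difference of -0.11 between the leukemias and whole marrow and the opposite sign, 0.07, without leukemia 2.

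**Figure D4:**
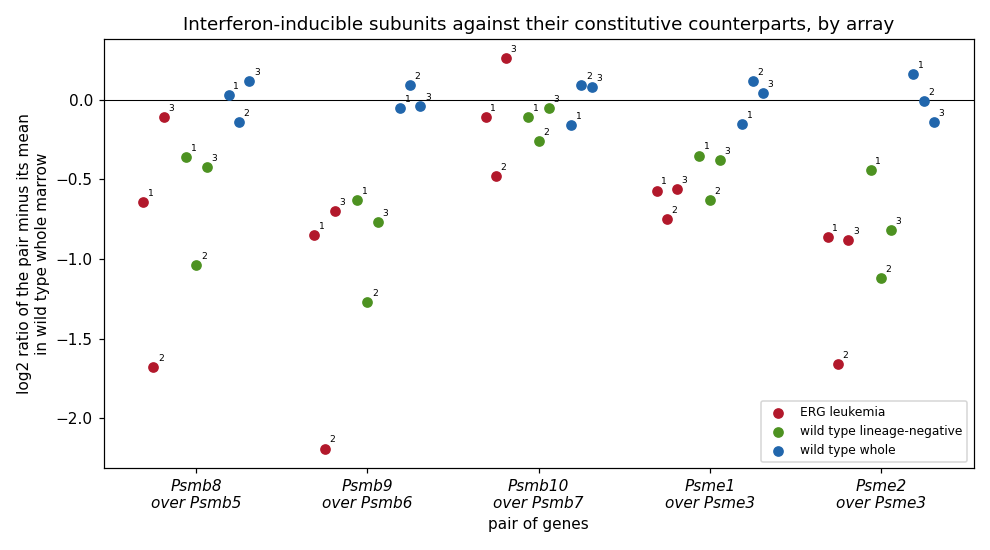
Log2 ratio of each immunoproteasome catalytic subunit to its constitutive partner, and of Psme1 and Psme2 to Psme3, on each array, less the mean ratio in whole marrow. Psme3 forms a separate activator and is not a partner that Psme1 or Psme2 replaces. ERG leukemia is at the left of each pair, then lineage-negative and whole marrow, and each point is 1 array. For Psmb9 over Psmb6 all leukemias lie below all whole marrow arrays, by a mean of -1.25, and Psmb10 over Psmb7 overlaps between all groups.

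Among the activators, which open the core without ATP, 1 of 4 was higher in the leukemias than in whole marrow, Psme3, and 2 of 4 were higher in lineage-negative than in whole marrow, Psme3 and Psme1. The shares of all genes were 14.6% and 21.7%, and with 4 genes these counts say nothing of the activators as a group. Psme3 forms the activator of the nucleus. It read 9.83, 9.96 and 9.77 in the leukemias, 9.70, 9.91 and 9.72 in lineage-negative marrow, and 9.00, 9.00 and 9.01 in whole marrow. The whole marrow arrays were almost the same and lay below all others, and the leukemias and pools overlapped. Psme3 was 1.80-fold higher in the leukemias than in whole marrow (0.85 ± 0.08, adjusted p = 0.000594, limma) and 1.71-fold higher in lineage-negative than in whole marrow (0.77 ± 0.08, adjusted p = 0.00021). Its adjusted p in the leukemias was the smallest of the 50 genes.

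Psme1 and Psme2 together form the activator induced by interferon. Psme1 read 9.23, 9.18 and 9.18 in the leukemias, 9.32, 9.24 and 9.31 in lineage-negative marrow, and 8.83, 9.09 and 9.02 in whole marrow. The leukemias were above all whole marrow arrays, and the difference of 0.22 ± 0.08 had an adjusted p of 0.0841 (limma), with a pass at 0.0496 when whole marrow 2 was left out and a difference of 0.14 without whole marrow 1. Its difference of 0.31 between lineage-negative and whole marrow passed (adjusted p = 0.0154) and did not pass after either other scaling or without pool 1 or pool 3. Psme2 read 8.15, 7.48 and 8.07 in the leukemias, 8.44, 7.97 and 8.08 in lineage-negative marrow, and 8.34, 8.17 and 8.05 in whole marrow. Apart from leukemia 2 the arrays overlapped, and the difference of -0.29 ± 0.19 did not pass (adjusted p = 0.346) and was -0.08 without leukemia 2. Relative to Psme3, Psme1 was lower by a mean of 0.63 on the log2 scale in the leukemias than in whole marrow and Psme2 by 1.14, in both cases with no overlap of arrays. The pools also lay below whole marrow without overlap, with mean differences of -0.46 for Psme1 and -0.79 for Psme2, and overlapped the leukemias. In the leukemias against whole marrow Psme1 itself differed by 0.22 and Psme3 by 0.85.

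Psme4, the activator known for its part in histone breakdown in the male germ line, read 8.97, 9.06 and 8.89 in the leukemias, 9.09, 8.96 and 8.83 in lineage-negative marrow, and 9.10, 8.70 and 9.28 in whole marrow. The leukemias and pools lay inside the range of whole marrow. Its differences were between -0.07 and 0.01 in the 3 comparisons, and the 95% interval between the leukemias and whole marrow was -0.39 to 0.27. Psmf1, which inhibits the core in vitro, read 8.53, 9.05 and 8.74 in the leukemias, 9.07, 9.06 and 8.89 in lineage-negative marrow, and 8.05, 7.73 and 8.25 in whole marrow. All leukemias and pools were above all whole marrow arrays, by 1.70-fold in the leukemias (0.76 ± 0.16, adjusted p = 0.00996, limma) and 2.00-fold in the pools (1.00 ± 0.16, adjusted p = 0.00154).

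Of the 7 factors that assemble the particles, 4 were higher in the leukemias than in whole marrow (Psmg2, Psmg4, Psmd5 and Psmd9) and 0 lower, against 14.6% and 9.93% of all genes. Psmg2, which pairs with Psmg1 to build the alpha ring, read 8.94, 8.95 and 8.86 in the leukemias, 9.22, 9.03 and 8.80 in lineage-negative marrow, and 8.20, 7.54 and 7.91 in whole marrow. It was higher on all leukemia arrays than on any whole marrow array, by 2.04-fold (1.03 ± 0.17, adjusted p = 0.00317, limma). Psmg1 read 7.90, 7.73 and 8.14 in the leukemias, 8.38, 8.80 and 8.08 in lineage-negative marrow, and 7.61, 7.30 and 7.18 in whole marrow. Leukemias and whole marrow did not overlap, but its difference of 0.56 ± 0.19 missed the threshold (adjusted p = 0.0697), while lineage-negative marrow was 2.08-fold above whole marrow (adjusted p = 0.00293).

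Psmg4, a partner in the same assembly step, was higher in the leukemias by 0.43 ± 0.11 (adjusted p = 0.0223, limma) and lost that call after loess and without leukemia 1, leukemia 3, whole marrow 2 or whole marrow 3. Psmg3, its partner, was below the array's median intensity in whole marrow, differed by 0.21 there and did not pass. Of the chaperones of the regulatory particle's base, Psmd5 was 1.64-fold higher in the leukemias (0.71 ± 0.10, adjusted p = 0.00162) and Psmd9 1.43-fold (0.52 ± 0.13, adjusted p = 0.0227). Psmd9 lost that call after loess and without leukemia 1, leukemia 2, whole marrow 1 or whole marrow 2. Psmd10, also called gankyrin, differed by 0.51 and did not pass (adjusted p = 0.059). Of the genes matched by symbol alone, Psme3ip1 was higher in the leukemias (0.45 ± 0.12, adjusted p = 0.0238) and Psmc3ip, a meiotic recombination factor, was higher in lineage-negative than in whole marrow (0.88, adjusted p = 0.00191). Psme3ip1 lost its call after either other scaling and without leukemia 1, leukemia 2, whole marrow 1 or whole marrow 3.

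The promoters of the proteasome genes were read for short motifs bound by transcription factors. Whether those factors control these genes in marrow was not tested. RefSeq promoter windows (GRCm38.p6, 250 bases before to 50 after the start site) matched 42 of the 50 genes. Searched on both strands, the ETS core CCGGAAG, bound by the family that ERG belongs to, was present in 16 of 42 genes (38.1%). The same letters were in 13.6% of the 15563 tested genes with a window, in 20.6% of those with a group mean above the array's median intensity and in 25.1% of those higher in the leukemias than in whole marrow. Among proteasome genes higher in the leukemias, a set picked by its call in these data, 9 of 18 held it. Among the 5 immunoproteasome genes 0 did, and with 5 genes that count says nothing of a difference between the sets. The antioxidant response element core TGACNNNGC, read by NRF1 and NRF2, was in 6 of 42 (14.3%), against 15.2% of tested genes. The interferon-stimulated element core, GAAA and GAAA parted by any 2 bases, was in 5 (11.9%, against 3.89%), the interferon gamma activated site TTCNNNGAA in 3 (7.14%, against 9.01%), the CCAAT box in 16 (38.1%, against 41.7%) and the MYC E-box CACGTG in 5 (11.9%, against 9.52%). No matches of different motifs overlapped in these windows. These are matches of letters, with no measure of binding.

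The 250 bases before the start site of 4 genes are shown, chosen after their values were seen: Psme3 and Psmd12 as genes higher in the leukemias whose windows hold the ETS core, and Psmb5 and Psmb8 as the exchangeable chymotrypsin-like pair. Capitals mark every match to the motifs above, in either orientation. In Psme3 (chr11:101315963-101316212, plus strand) they are the ETS core, the E-box and a CCAAT box on the opposite strand. In Psmd12 (chr11:107479278-107479527, plus strand) they are an antioxidant response core and an ETS core, both on the opposite strand. In Psmb5 (chr14:54617996-54618245, minus strand) the match is an antioxidant response core, and in Psmb8 (chr17:34197945-34198194, plus strand) an interferon gamma activated site.
Psme3: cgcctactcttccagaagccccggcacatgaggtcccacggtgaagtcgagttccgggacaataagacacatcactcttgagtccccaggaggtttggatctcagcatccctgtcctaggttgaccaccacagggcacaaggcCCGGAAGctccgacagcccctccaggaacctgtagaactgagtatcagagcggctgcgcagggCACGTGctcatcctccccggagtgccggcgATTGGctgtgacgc
Psmd12: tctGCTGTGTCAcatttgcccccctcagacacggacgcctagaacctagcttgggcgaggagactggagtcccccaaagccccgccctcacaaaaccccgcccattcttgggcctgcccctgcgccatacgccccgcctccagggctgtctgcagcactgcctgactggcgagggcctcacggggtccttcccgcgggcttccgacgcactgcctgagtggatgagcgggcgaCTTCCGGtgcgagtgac
Psmb5: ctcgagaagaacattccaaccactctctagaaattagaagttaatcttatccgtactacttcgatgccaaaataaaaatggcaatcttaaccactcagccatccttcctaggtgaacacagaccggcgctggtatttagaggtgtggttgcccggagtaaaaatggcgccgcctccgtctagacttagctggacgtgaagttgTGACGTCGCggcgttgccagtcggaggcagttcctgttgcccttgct
Psmb8: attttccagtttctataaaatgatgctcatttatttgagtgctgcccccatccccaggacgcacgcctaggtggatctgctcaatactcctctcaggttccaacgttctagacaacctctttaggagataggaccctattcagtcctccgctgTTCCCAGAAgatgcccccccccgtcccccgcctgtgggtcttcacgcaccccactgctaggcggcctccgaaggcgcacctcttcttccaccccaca

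Beyond the subunits, genes that work with the proteasome were read from lists drawn up for this purpose. Of 13 measured partners (chaperones, shuttles and deubiquitinases), 6 were higher in the leukemias than in whole marrow and 0 lower, with a median log2 difference of 0.30, where 14.6% of all genes were higher and 9.93% lower. Ubqln4, which carries ubiquitinated proteins to the proteasome, read 7.32, 7.24 and 7.05 in the leukemias, 7.59, 7.99 and 7.68 in lineage-negative marrow, and 6.17, 6.07 and 6.14 in whole marrow. The groups did not overlap: it was higher in the leukemias than in whole marrow by 1.08 (adjusted p = 0.000836, limma) and lower than in lineage-negative marrow (log2 difference -0.55, adjusted p = 0.0244). The thioredoxin-like Txnl1, which binds the regulatory particle, was higher in the leukemias by 1.04 (adjusted p = 0.00138). Usp14, a deubiquitinase of that particle, was higher by 0.76 (adjusted p = 0.000723), and Pomp, the chaperone that matures the core, by 0.55 (adjusted p = 0.0311). Sem1, a small lid subunit with a symbol outside the rule, differed by -0.53 between the leukemias and whole marrow without passing (adjusted p = 0.123), and it was lower in lineage-negative than in whole marrow (log2 difference -0.92, adjusted p = 0.0104).

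Of 8 measured genes for ubiquitin conjugation and the segregase p97, 3 were higher in the leukemias than in whole marrow and 0 lower, among them Vcp, which encodes p97 (log2 difference 0.48, adjusted p = 0.00204, limma). NRF1 is a transcription factor that raises proteasome genes when the protease is inhibited. Of 7 measured genes around NRF1 and NRF2, 2 were higher, Mafk by 0.72 (adjusted p = 0.0235) and Keap1 by 0.67 (adjusted p = 0.00246). Of all genes 14.6% were higher, and with 8 and 7 genes the counts of these 2 lists say nothing of either list as a group. The gene for NRF1, Nfe2l1, differed by -0.10 (adjusted p = 0.701) and that for NRF2, Nfe2l2, by -0.28 (adjusted p = 0.216). Of 10 measured genes for MHC class I antigen processing, 0 were higher and 2 lower in the leukemias, where 14.6% and 9.93% of all genes were, so the count lower is near that over all genes. These were Irf1 (log2 difference -1.47, adjusted p = 0.0101) and the class I regulator Nlrc5 (-0.44, adjusted p = 0.0435). Tap1, the neighbour of Psmb8 and Psmb9 in the MHC region, differed by -0.77 and just missed the threshold (adjusted p = 0.0503).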

How the data were processed

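RNA of 9 marrow samples was hybridised to Affymetrix whole-transcript arrays with 28853 probe sets. The authors deposited linear intensity values, produced with RMA in Partek per the submitters' processing notes, which name no version and no genome build. Values were log2-transformed with no further normalization. Names came from the platform's annotation table (21789 probe sets with 1 symbol, 1621 with several, 5443 not named), which left 19938 genes; the brightest probe set by mean stood for its gene. One probe set that names Psme2 together with another gene was left out. Of the 50 proteasome genes, 49 had a group mean above the median intensity of all probe sets, 33.4, and 47 had all 3.

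The 3 groups were compared in a single fit to the 9 arrays, using limma (version 3.58.1, under R 4.3.3; eBayes without trend, 6 residual and 2.62 prior degrees of freedom), two-sided, with Benjamini-Hochberg adjustment over all genes of a comparison and a threshold of 0.05. The fit was tested on simulated data. Errors of differences are standard errors, and intervals are 95% intervals of the same fit. The number of arrays limits the precision. Each leukemia or whole marrow array is 1 mouse and each lineage-negative array a pool of 3, so the shared spread is not that between mice alone. Leukemias were numbered in accession order. Array medians of intensity lay between 32.3 and 34.4.

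The rule named the catalytic pairs, the activators and, per comparison, the 5 largest log2 differences past the threshold in each direction. Other genes named in the text were chosen after their values were seen. The members, role groups, pathway and marker lists were chosen with earlier results of these data known. Alternatives were other scalings, brighter genes, averaged probe sets, eBayes with trend, only the groups compared, each array left out in turn and a replicate block. Promoter sequences are RefSeq's, assembly GRCm38.p6. The plots used matplotlib 3.10.9 and Python 3.11.15.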

Additional observations from a re-analysis of the deposited data

How the results depend on the processing

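After cyclic loess, 14 proteasome genes were higher in the leukemias than in whole marrow and 20 in lineage-negative than in whole marrow. Of all genes, 10.9% and 16.3% were higher, and the cause of the lower counts was not tested. Loess also turned values that had not passed: Psmb5 (-0.05) and Psmb10 (-0.02) in the leukemias against whole marrow, and Psmb10 (0.00) against lineage-negative marrow and (-0.02) in lineage-negative against whole marrow. With each array left out in turn, 20 to 26 proteasome genes were higher and 0 to 1 lower in the leukemias against whole marrow, 29 to 36 higher and 0 lower in lineage-negative than in whole marrow, and 0 higher and 0 to 1 lower in the leukemias than in lineage-negative marrow. The lower genes were Psmb8 and Psma8, both without leukemia 3. Over all genes, 2350 to 2835 were higher and 1248 to 1915 lower in the leukemias against whole marrow (1248 without whole marrow 1), and 268 to 827 higher and 490 to 1174 lower than in lineage-negative marrow, where leaving out pool 1 (314 and 490), pool 2 (334 and 720), pool 3 (268 and 690) or leukemia 3 (400 and 607) moved the counts most. Small differences that changed sign with an array left out ranged, in the leukemias against whole marrow, from -0.00 (without whole marrow 3) to 0.25 for Psmb5, from -0.06 (without leukemia 3) to 0.38 for Psmb10 and from -0.22 to 0.07 (without whole marrow 3) for Psme4. Against lineage-negative marrow they ranged from -0.20 to 0.00 (without pool 2) for Psmb6, from -0.32 to 0.12 (without leukemia 2) for Psmb10 and from -0.05 to 0.08 for Psme4. In lineage-negative against whole marrow they ranged from -0.16 to 0.07 for Psme2 and from -0.23 to 0.05 for Psme4. With arrays left out, a choice added after seeing the data, the mean log2 ratio of Psmb10 to Psmb7 in the leukemias against whole marrow ranged from -0.30 (without leukemia 3) to 0.07 (without leukemia 2). The wild type groups share replicate numbers, and the main fit did not pair them. The correlations of same-numbered deviations were 0.312, -0.009 and -0.009. No differently numbered arrays were set beside them, so they cannot decide whether the arrays are paired. With the replicate block, 36 proteasome genes were higher in lineage-negative than in whole marrow, Psmb5 passed (0.37, adjusted p = 0.0258, limma) and Psme1 did not (0.31, adjusted p = 0.0633). With 3 arrays a group, differences within the intervals given above could not be resolved.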
